A study of Mus musculus with 12 samples.

Results

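The genes described here were 10 heat shock proteins and their helpers, taken by name from the deposited expression tables of mouse prefrontal cortex (PFC). They were Hspa1a, Hspa1b, Hspb1, Hsph1, Dnajb1, Hspa8, Hsp90aa1, Hsp90ab1, Hspa5 and Hspe1, out of 40508 gene names that the tables hold, and all 10 were found in each table. The mice were C57BL/6 males of 10 weeks that received daily intraperitoneal injections of cocaine (20 mg/kg) or of saline for 14 days, and the PFC was excised at 1 of 3 times counted from the last injection, which were 2 h, 24 h and 7 days. There were 6 groups, namely saline and cocaine at each time, with 2 libraries per group and tissue of 5 mice pooled in each library. The tables hold 1 pooled value per group, in FPKM (fragments scaled by transcript length and by the mapped fragments of the library), so no spread between replicates could be computed. No test between cocaine and saline was made here, and no difference below was checked against replicates. The authors' own comparison of the groups was not used. Each difference is a ratio of a pair of such values, cocaine over saline at the same time, or its log2. In bulk tissue, a change in the number of cells of a type and a change in RNA per cell cannot be told apart.

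Heat shock proteins are chaperones, which bind unfolded proteins, help them fold and keep them from clumping. In the cytosol, Hsp70 proteins hold and release client proteins in a cycle driven by ATP, Hsp40 proteins speed up that cycle, Hsp110 proteins help to reset it, and Hsp90 proteins take over clients such as kinases and steroid receptors. Stress on cytosolic proteins raises many of these genes through heat shock factor 1, which binds repeats of GAA and TTC called heat shock elements, whereas stress in the endoplasmic reticulum (ER) raises Hspa5 through other factors and the ER stress element. Neurons hold large amounts of the constitutive members even without stress.

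Promoters are shown for the 4 entries with the highest ratio at 2 h and for Hspe1, the member that was lowest at 7 days, to show which of the known stress motifs lie in them. The set of RefSeq promoters used here held 7 of the 10 members on GRCm38.p6, from 250 bases before to 50 bases after the start site, which is counted as 0. It had no entry for Hspa8, Hsp90aa1 and Hsp90ab1, so their promoters were not examined. Capitals mark matches on either strand to GAANNTTC or TTCNNGAA (pairs of heat shock element units), to the triple GAANNTTCNNGAA, which contains such pairs, and to the ER stress element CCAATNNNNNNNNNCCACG. The stretches are Hspa5 at chr2:34771840-34772139 (plus strand), Hspb1 at chr5:135887669-135887968 (plus strand), Hspa1b at chr17:34959189-34959488 (minus strand), Dnajb1 at chr8:83607925-83608224 (plus strand) and Hspe1 at chr1:55087898-55088197 (plus strand).
Hspa5: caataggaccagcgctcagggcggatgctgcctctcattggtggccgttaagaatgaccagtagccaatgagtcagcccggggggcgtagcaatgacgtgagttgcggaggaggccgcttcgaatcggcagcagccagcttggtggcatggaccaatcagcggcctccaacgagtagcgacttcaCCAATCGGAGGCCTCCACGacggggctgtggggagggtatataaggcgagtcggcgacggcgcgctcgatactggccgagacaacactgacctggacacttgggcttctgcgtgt
Hspb1: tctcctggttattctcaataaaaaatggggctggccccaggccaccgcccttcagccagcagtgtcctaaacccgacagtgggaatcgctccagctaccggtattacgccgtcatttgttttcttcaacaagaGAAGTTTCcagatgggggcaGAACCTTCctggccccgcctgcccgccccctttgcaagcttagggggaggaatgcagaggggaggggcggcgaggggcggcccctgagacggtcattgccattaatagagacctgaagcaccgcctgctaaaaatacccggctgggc
Hspa1b: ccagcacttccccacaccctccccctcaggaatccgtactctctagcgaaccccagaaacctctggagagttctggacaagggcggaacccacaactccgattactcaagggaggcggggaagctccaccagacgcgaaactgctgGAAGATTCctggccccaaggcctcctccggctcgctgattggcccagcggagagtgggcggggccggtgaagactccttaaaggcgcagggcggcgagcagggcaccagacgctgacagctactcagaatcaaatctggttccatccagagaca
Dnajb1: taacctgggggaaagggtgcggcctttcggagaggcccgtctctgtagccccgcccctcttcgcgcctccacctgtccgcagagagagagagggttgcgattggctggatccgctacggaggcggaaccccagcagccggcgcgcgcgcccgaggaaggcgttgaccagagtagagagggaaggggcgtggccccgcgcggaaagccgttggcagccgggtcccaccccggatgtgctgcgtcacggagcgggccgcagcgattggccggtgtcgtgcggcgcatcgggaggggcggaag
Hspe1: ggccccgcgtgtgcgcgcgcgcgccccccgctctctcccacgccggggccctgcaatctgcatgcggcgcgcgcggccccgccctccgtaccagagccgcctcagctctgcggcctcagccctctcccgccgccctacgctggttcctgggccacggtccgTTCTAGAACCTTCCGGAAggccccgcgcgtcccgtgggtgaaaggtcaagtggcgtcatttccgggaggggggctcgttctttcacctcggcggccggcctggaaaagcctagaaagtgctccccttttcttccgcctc

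The Hspa5 promoter held 1 exact match to the ER stress element, from position -65 to -47, and no heat shock element pair. Near matches were not searched for, neither to this motif nor to the heat shock elements below. An exact ER stress element was found in 0.119% of the 32851 mouse promoters of the same length. The Hspb1 promoter held the pair GAANNTTC at -117 and at -97, and Hspa1b held it at -104. The Hspa1a promoter differed from that of Hspa1b at 4 of 300 bases and had the same match at the same position. Hspe1 carried overlapping triples from -89 to -72, an unbroken run of alternating GAA and TTC units, and Hsph1 carried a triple downstream of both of its listed start sites (from 36 and from 15). A triple was found in 0.603% of all promoters, whereas at least 1 of the pairs was found in 15.1%, so a pair alone is common. Neither of the listed start sites of Dnajb1 had an exact match to any of the motifs, which leaves imperfect heat shock elements unexamined. These matches describe letters in a window only, and binding of any factor was not measured.

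The members spanned a wide range of levels, and FPKM, being scaled by transcript length, lets their levels be set side by side. The levels of Hspa8, Hsp90aa1, Hspb1, Hspa1a and Hspa1b, and with them the order and the shares given here, are uncertain, because much of their sequence also stands elsewhere in the genome and only uniquely mapped reads were used. The most abundant was Hspa8, the constitutive cytosolic Hsp70, with a mean of 763 FPKM over the 6 groups. The next were Hsp90ab1, the constitutive Hsp90, with 470 FPKM and Hsp90aa1, its stress-inducible partner, with 314. Together these 3 genes made up 84.8% to 86.8% of the summed FPKM of all members in each group. A middle tier held Hspa5 (85.4 FPKM), Hspe1 (72.0) and Hsph1 (62.1), followed by Dnajb1 (24.8). The stress-inducible Hspa1a and Hspa1b together averaged 8.18 FPKM and Hspb1 6.84. The ranges of Hspa5 and Hspe1 over the 6 groups overlapped, as did those of Hspe1 and Hsph1 and those of Hspa1a/Hspa1b and Hspb1. Whether these neighbours differed in level was not tested. Within a group the order was the same throughout, except that Hspb1 stood above Hspa1a/Hspa1b in cocaine at 2 h. The sum over all members moved little, between 1768 FPKM (cocaine, 7 days) and 1842 FPKM (cocaine, 2 h).

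**Figure D1:**
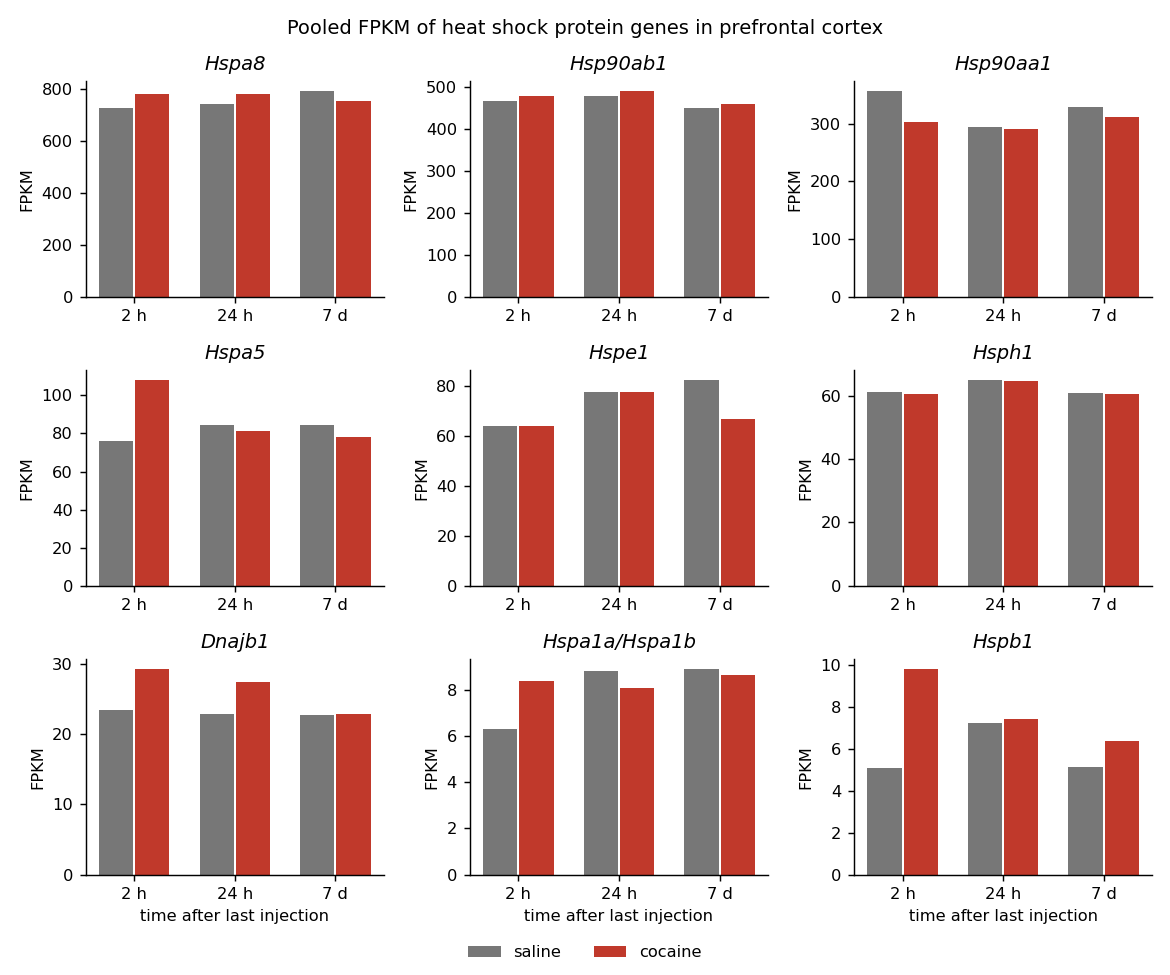
Pooled FPKM (vertical axes, each from 0) of the members in saline (grey) and cocaine (red) at the 3 times from the last injection; each bar is 1 pooled value without an error. Hspb1, Hspa5, Hspa1a/Hspa1b and Dnajb1 stand higher in cocaine at 2 h, Dnajb1 again at 24 h, and Hspe1 stands lower in cocaine at 7 days.

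At 2 h the ratios of the members differed widely. The threshold used to count genes was a value at least 25% higher in cocaine or, for the inverse ratio, at least 20% lower. Of the 9 entries 3 were past it upwards (Hspb1, Hspa5 and the joint locus of Hspa1a and Hspa1b), against 7.45% of the 13683 loci with a mean of at least 1 FPKM. No entry was past it downwards, against 5.8% of all loci. The median log2 ratio of the members was 0.10, with a range from -0.23 to 0.94, and that of all loci was 0.02. Of the 3 most abundant members, Hspa8 and Hsp90ab1 had log2 ratios of 0.10 and 0.04 and Hsp90aa1 had the lowest ratio of all members.

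Hspb1 encodes a small heat shock protein (Hsp25) that binds unfolded proteins without ATP and interacts with actin, and its locus lies on chromosome 5 (135887919 to 135889563, GRCm38 as all loci here). It stood at 5.09 FPKM under saline and 9.79 under cocaine at 2 h, a ratio of 1.92 (log2 0.94, or 0.82 with a pseudocount of 1 FPKM), and only 118 of the 13683 loci had a higher ratio. At 24 h it stood at 7.22 and 7.42 FPKM, and at 7 days at 5.15 and 6.35. The 2 h cocaine value was thus above all 3 saline values, but the saline values themselves differed by up to 1.42-fold between time points. The 24 h saline value was the highest of the 3, and the cocaine value beside it lay only 2.75% above it. At 7 days the ratio was 1.23 (log2 0.30), just short of the threshold. Red blood cell, endothelial and astrocyte markers were also higher in cocaine at 2 h (log2 of their sums 0.64, 0.18 and 0.17), and their part in the Hspb1 value was not tested.

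Hspa5 encodes BiP, the Hsp70 of the ER and a sensor partner of the unfolded protein response, and lies on chromosome 2 (34771970 to 34776531). It stood at 75.9 FPKM under saline and 108 under cocaine at 2 h, a ratio of 1.42 (log2 0.51), with 407 loci above it. At the later times it was slightly lower in cocaine, with 84.3 against 81.3 FPKM at 24 h and 84.6 against 78.3 at 7 days (log2 -0.05 and -0.11). The 3 saline values differed by 1.11-fold at most, and the 2 h cocaine value lay above all of them while the later cocaine values lay inside their range. The 2 h log2 ratio exceeded that of 7 days by 0.62.

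Hspa1a and Hspa1b encode near-identical inducible Hsp70 proteins and lie next to each other on chromosome 17. The tables of 2 h and 24 h give them as 1 locus (34956436 to 34972207), and the table of 7 days as separate loci (34956436 to 34959238 for Hspa1b and 34969190 to 34972156 for Hspa1a). The joint locus stood at 6.30 FPKM under saline and 8.38 under cocaine at 2 h, a ratio of 1.33 (log2 0.41). At 24 h the values were 8.83 and 8.07 FPKM (log2 -0.13). At 7 days Hspa1a had 3.80 and 3.78 FPKM and Hspa1b 5.08 and 4.86, which sum to 8.88 in saline and 8.64 in cocaine (log2 -0.04). Across the groups, the value that stands apart is the low saline level at 2 h: the 2 h cocaine value lies inside the range of the saline values, which differed by 1.41-fold. All 3 cocaine values lay within 1.07-fold of each other.

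Dnajb1 encodes an Hsp40 cochaperone that stimulates the ATPase of Hsp70, and lies on chromosome 8 (83608175 to 83611902). Its saline values were the steadiest of all members, at 23.5, 22.9 and 22.7 FPKM in order of time, which is within 1.03-fold. Cocaine stood at 29.2 FPKM at 2 h and 27.4 at 24 h, above all saline values, and at 22.9 FPKM at 7 days, inside their range. The ratios were 1.247 at 2 h, just short of the threshold, 1.19 at 24 h and 1.01 at 7 days, or 0.32, 0.26 and 0.01 on the log2 scale. It was the member with the highest ratio at 24 h, where 981 of 14124 loci had a higher one.

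Hsp90aa1, an Hsp90 that stress raises, had the lowest ratio of the members at 2 h, with 356 FPKM under saline and 303 under cocaine (log2 -0.23, or 14.9% lower). At 24 h it stood at 294 and 291 FPKM and at 7 days at 329 and 312. Hsp90aa1 lies on chromosome 12 (110690605 to 110702728). Its 2 h saline value was the highest of the 6 groups, and the 2 h cocaine value lay inside the saline range of 294 to 356. The other Hsp90, Hsp90ab1 on chromosome 17 (45567775 to 45573859 at 2 h), had nearly the same ratio at each time, with log2 ratios of 0.04, 0.03 and 0.03 (467 and 479 FPKM at 2 h, 479 and 489 at 24 h, 448 and 459 at 7 days).

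Hspa8, which besides folding strips clathrin from synaptic vesicles, stood at 729 FPKM under saline and 780 under cocaine at 2 h, at 744 and 781 at 24 h, and at 792 and 754 at 7 days. These are log2 ratios of 0.10, 0.07 and -0.07, and all 3 cocaine values lay inside the saline range. Hspa8 lies on chromosome 9 (40800984 to 40805202 at 2 h) and Hsph1 on chromosome 5 (149614287 to 149636376 at 2 h), and the start or end of some loci differs slightly between tables. Hsph1, the Hsp110 that resets Hsp70 by exchanging its nucleotide, had the ratios nearest to 1 over the 3 time points: 61.3 and 60.6 FPKM at 2 h, 64.9 and 64.7 at 24 h, 60.8 and 60.6 at 7 days (log2 -0.02, 0.00 and 0.00).

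**Figure D2:**
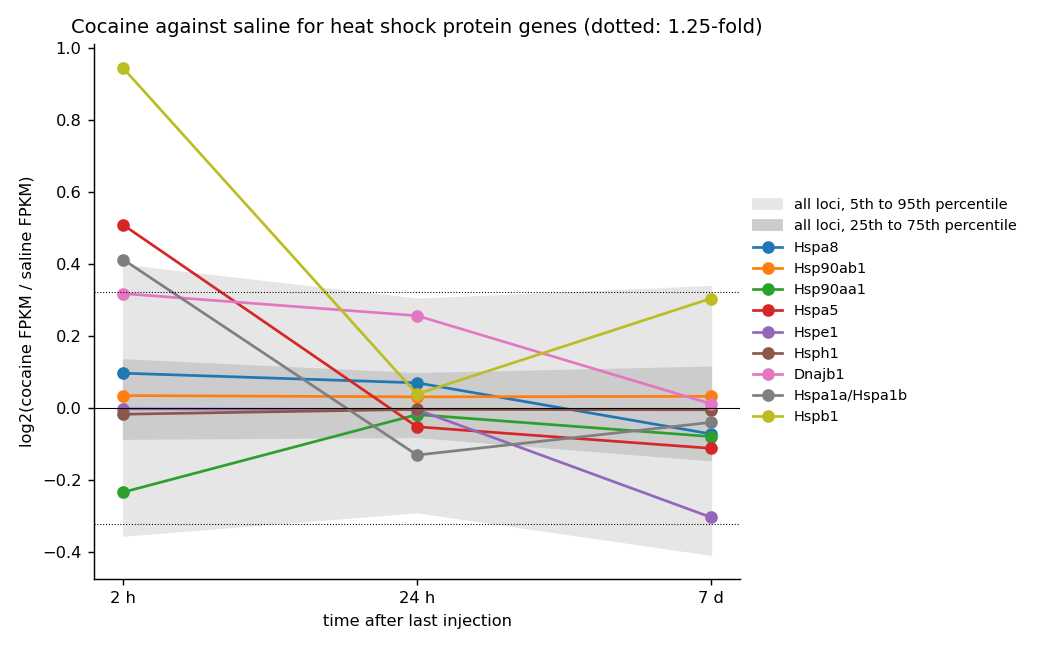
Log2 ratio of cocaine to saline FPKM (vertical axis) of each member at the 3 time points, over bands that hold the 5th to 95th and the 25th to 75th percentile of all loci with a mean of at least 1 FPKM; dotted lines mark 25% higher and 20% lower. At 2 h Hspb1 (0.94), Hspa5 (0.51) and Hspa1a/Hspa1b (0.41) lie above the 95th percentile of 0.40, and at 24 h and 7 days all members lie inside the outer band.

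At 24 h none of the 9 entries was past the threshold in either direction, against 4.46% of 14124 loci higher and 3.94% lower. The members' median log2 ratio was 0.00 and their range -0.13 to 0.26. At 7 days none of the 10 loci was past it, against 5.63% of 13787 loci higher and 8.38% lower, and the median was -0.04 with a range of -0.30 to 0.30. At that time 7 of the 10 loci were lower in cocaine and 3 were higher (Hspb1, Hsp90ab1 and Dnajb1). Hspa1a and Hspa1b count here as separate loci, and Hspa1a and Hsph1 were lower only by log2 -0.008 and -0.004. The median of all loci was also below 0 (-0.01), and the share of all loci lower in cocaine was not counted.

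The member that was lowest in cocaine at 7 days was Hspe1, the mitochondrial Hsp10 that caps the Hsp60 chaperonin. It stood at 82.3 FPKM under saline and 66.7 under cocaine (log2 -0.30, or 18.9% lower), after 63.9 and 63.8 FPKM at 2 h and 77.7 and 77.5 at 24 h. The 7 day cocaine value lay inside the saline range, whose extremes were 1.29-fold apart. Its partner Hspd1 (Hsp60), which is encoded head to head with it and spans the same locus of chromosome 1 (55077835 to 55091307), had 52.6 FPKM under saline and 49.5 under cocaine at 7 days (log2 -0.09).

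Transcript length moved with the ratio at 7 days. Across the 11535 loci with a known length, Spearman's rho between length and log2 ratio was 0.47 at 7 days, against 0.16 at 2 h and 0.09 at 24 h; loci are not independent replicates. The shortest members were Hspe1, with a transcript of 774 nt, and Hspb1, with 930 nt, and genes of like length had median log2 ratios of -0.23 and -0.18 at 7 days. Less that median, Hspe1 was at -0.07 and Hspb1 at 0.48, so the short members stood on opposite sides of genes of their own length. The other members have transcripts of 2263 to 3802 nt, and the same step moved each of them by at most 0.05.

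**Figure D3:**
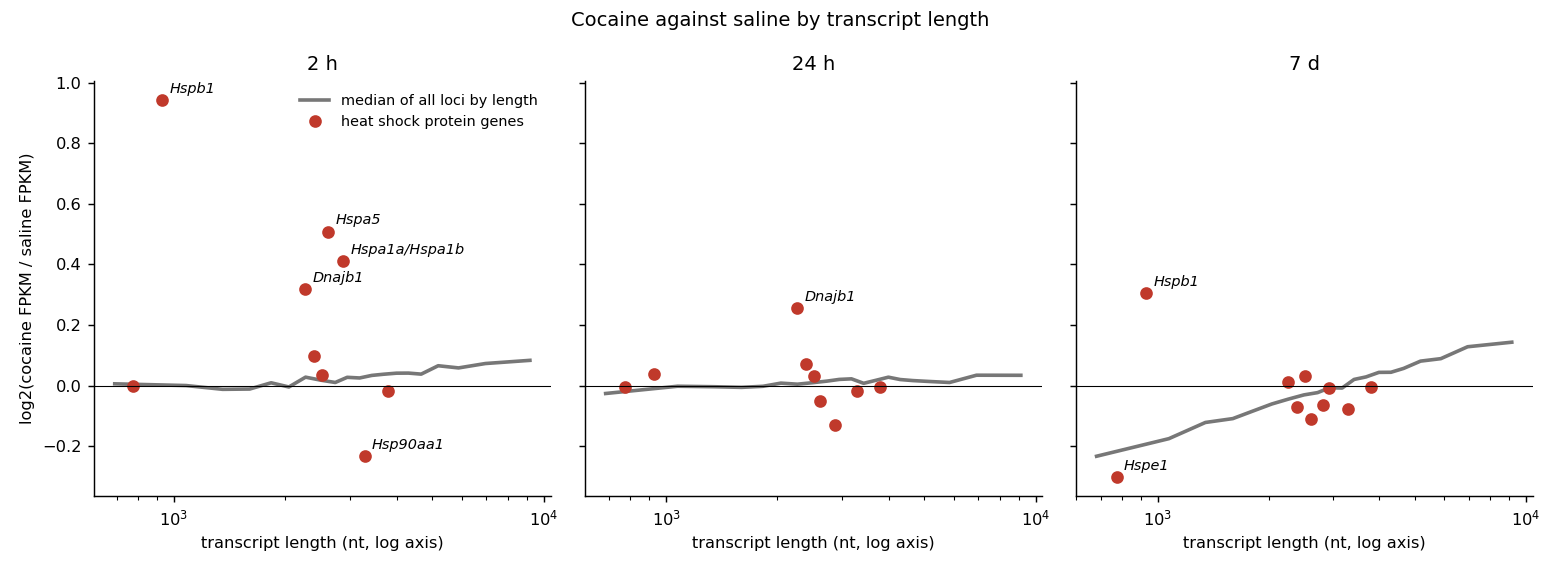
Log2 ratio of cocaine to saline FPKM (vertical axis) against transcript length in nt (horizontal log axis) at each of the 3 times; red points are the members and the grey line is the median of all loci in 20 groups of length. The line runs from -0.23 for the shortest to 0.14 for the longest genes at 7 days, with Hspe1 just below it and Hspb1 well above it.

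The saline values of the 3 time points are the only view of how far a level varied without cocaine, and each table was normalized separately, which limits such a comparison. At 2 h, 3 of 9 entries in cocaine lay above all 3 saline values (Hspb1, Hspa5 and Dnajb1) and 2 lay below (Hspe1 and Hsph1, both by under 1 FPKM), against 29.8% and 25.1% of 12761 genes. At 24 h, 3 lay above (Dnajb1, Hspb1 and Hsp90ab1) and 1 below (Hsp90aa1), against 28.9% and 18.4%. At 7 days 0 lay above and 1 below (Hsph1, by 0.185 FPKM), against 13.7% and 24.6%. The counts of members outside the saline range were thus near the share over all genes at 2 h and 24 h. The 2 h cocaine values of Hspb1, Hspa5 and Dnajb1 lay 1.36-fold, 1.28-fold and 1.247-fold above their highest saline value.

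Only reads with a unique place in the genome entered these values, and several members have copies elsewhere in the genome. Of the 75-base windows along the longest transcript, 54.8% for Hspa1a, 55.8% for Hspa1b, 67.9% for Hspa8, 56.1% for Hsp90aa1 and 48.6% for Hspb1 matched 2 or more places of the NCBIM37 genome exactly. For Hspa1a, 53.2% of the windows also stood in Hspa1b. Hspe1 had 10.9% and Hsp90ab1 1.06% of such windows, and Hspa5, Dnajb1 and Hsph1 had none (0 of 2539, 2189 and 3728 windows). Windows across a splice junction, which have no unbroken match in the gene itself, stayed in these totals. The levels of the first 5 genes are therefore uncertain as absolute values, and the split between Hspa1a and Hspa1b at 7 days rests on the windows that differ.

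The wider chaperone network was described with 8 lists of 130 distinct genes, of which 118, 119 and 118 had a mean of at least 1 FPKM at the 3 times in order. At 2 h 13 of these genes (11%) were past the threshold upwards and 1 (0.847%) downwards, against the 7.45% and 5.8% of all loci given above. At 24 h the counts were 2 higher (1.68%) and 1 lower (0.84%), against 4.46% and 3.94% of all loci, and at 7 days 1 (0.847%) and 4 (3.39%), against 5.63% and 8.38%. The network thus had a larger share than all loci only upwards at 2 h. Of those 13 upward genes 7 were in the list of ER genes, so this larger share rested largely on that list. The median log2 ratio of the network was 0.03, 0.02 and -0.04.

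The list with the most genes past the threshold at 2 h was the ER list, the list around Hspa5. Of its 25 genes 7 (28%) were past the threshold, all higher in cocaine, against 7.45% of all loci, 22 had a ratio above 1, and the median log2 ratio was 0.17 against 0.02 for all loci. The highest was Sdf2l1, a partner of ER Hsp40 proteins, with 5.37 FPKM under saline and 10.8 under cocaine (log2 1.01). Its saline values at 24 h and 7 days were higher, at 7.04 and 7.25 FPKM, and the 2 h cocaine value lay above all of them. Pdia4, a disulfide isomerase, stood at 9.89 and 15.1 FPKM (log2 0.61). Creld2, Xbp1, Herpud1, Pdia6 and Manf had log2 ratios of 0.49, 0.40, 0.37, 0.36 and 0.34; Xbp1 is a transcription factor of the unfolded protein response and Herpud1 serves the breakdown of misfolded ER proteins. The Manf locus also holds Rbm15b, so its value covers both genes. Not every gene of the list was higher: Hsp90b1, the ER Hsp90, was the lowest at 95 and 91.2 FPKM (log2 -0.06), and Canx had 76.3 and 76.4. At 24 h 0 of 25 genes were past the threshold and the median was 0.00, with Creld2 highest (0.19). At 7 days 1 of 24 was past it, Canx with 68.0 and 86.3 FPKM (log2 0.34), and the lowest was Atf4 (-0.19). For Canx 68.0 FPKM was the lowest saline value, and the highest was 83.2 at 24 h, close to the 7 day cocaine value. Except where given, genes of the lists were not set against the saline values of other times.

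The list of other Hsp40 genes gave fewer genes past the threshold. It is not limited to the cytosol and shares Dnajb9, Dnajb11 and Dnajc3 with the ER list. Among 37 other Hsp40 genes at 2 h, 2 (5.41%) were past it, a smaller share than the 7.45% of all loci: Dnajb5 with 46.2 FPKM under saline and 79.3 under cocaine (log2 0.78) and Dnajb4 with 20.7 and 27.6 (log2 0.42), both of the same subfamily as Dnajb1. Dnajb5 was the highest of this list at 24 h too, with 37.3 and 48.4 FPKM (log2 0.38), where Dnajc21 (log2 0.34) was also past the threshold. At 7 days the list had 3 of 38 genes past the threshold, all lower (7.89%, near the 8.38% of all loci), of which Dnajc15 (46.7 and 33.8 FPKM, log2 -0.47) and Dnajc19 (31.2 and 22.6, log2 -0.46) belong to the inner mitochondrial membrane. These ratios are given without subtraction of the length trend at 7 days, and the part of length in them was not tested.

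Of the 4 other small heat shock proteins with at least 1 FPKM at 2 h, Hspb8 was past the threshold with 8.32 FPKM under saline and 10.9 under cocaine (log2 0.40). Hspb8 had 10.0 FPKM under saline at 24 h, the highest of its saline values. Its partner Bag3, which couples Hsp70 to selective autophagy, had 1.96 and 2.54 FPKM (log2 0.37) and was the only 1 of 14 Hsp70 exchange and binding factors past it. Among 19 other Hsp90 genes and cochaperones only Fkbp5 was, with 6.02 and 9.40 FPKM (log2 0.64), a cochaperone of steroid receptors that glucocorticoids raise. The shares past the threshold were 7.14% of the exchange and binding factors and 5.26% of the Hsp90 list. Neither was above the 7.45% of all loci. For the small heat shock proteins the share of 25% stands for 1 gene of 4. Hspb8 and Bag3 were within the threshold at 24 h and 7 days, as was Fkbp5.

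The factors that read heat shock elements had ratios near 1. Hsf1 stood at 7.12 FPKM under saline and 7.61 under cocaine at 2 h (log2 0.10), and the 4 genes of the list with at least 1 FPKM had 0 past the threshold at each time, with Hsbp1 lowest at 7 days (log2 -0.23). The other Hsp70 and Hsp110 genes (10, 9 and 10 with at least 1 FPKM) also had 0 past the threshold at each time, with a range of log2 -0.15 (Hspa1l) to 0.23 (Hspa13) at 2 h. Of the 11 chaperonin genes, Cct6a was higher and Bbs10 lower at 2 h (log2 0.43 and -0.39), while the median was -0.05. That is 9.09% of the list in each direction, against 7.45% of all loci higher and 5.8% lower. Bbs10, with 1.43 FPKM under saline and 1.09 under cocaine, was close to the floor of 1 FPKM.

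**Figure D4:**
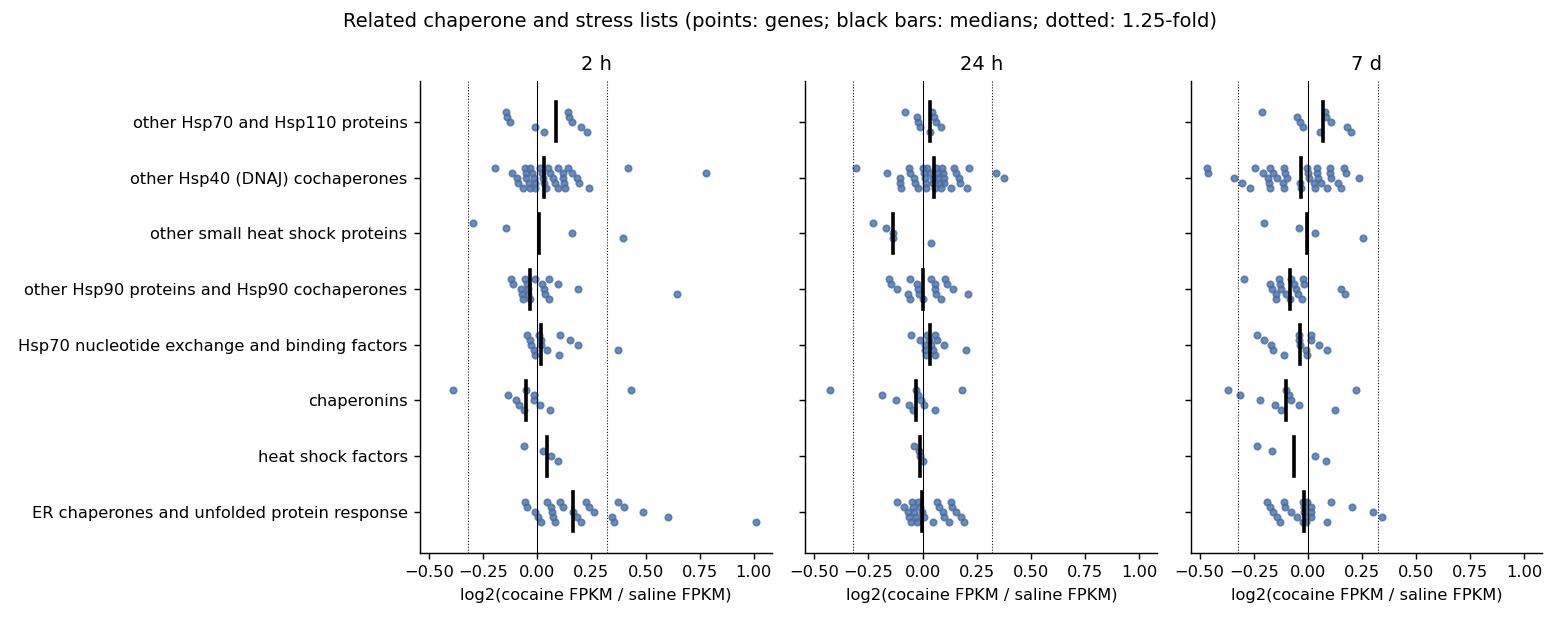
Log2 ratio of cocaine to saline FPKM (horizontal axes, shared scale) of each gene with a mean of at least 1 FPKM in 8 lists related to the members, in 1 panel per time; black bars are medians and dotted lines mark 25% higher and 20% lower. The ER list reaches furthest to the right at 2 h, with a median of 0.17 and Sdf2l1 at 1.01, and lies around 0 at the later times.

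The tissue carried high levels of neuronal markers, with the 6 genes of that list summing to 2425 to 2539 FPKM per group and log2 ratios of the sums between -0.07 and -0.01. Most of that sum was Snap25, which was lower in cocaine at each time, whereas 4 of 6 genes were higher at each time. Other markers differed more between cocaine and saline. At 2 h the summed log2 ratio was 0.64 for red blood cells (5 of 5 genes higher in cocaine), 0.18 for endothelial cells (5 of 6) and 0.17 for astrocytes (6 of 6), at the time when Hspb1 and Hspa5 were higher. At 24 h those of astrocytes (-0.16, 0 of 6 higher), oligodendrocytes (-0.26, 0 of 6) and microglia (-0.13, 1 of 6) were below 0. At 7 days astrocytes (0.26, 6 of 6), red blood cells (0.23, 5 of 5), smooth muscle and pericytes (0.22, 5 of 6) and endothelial cells (0.08, 5 of 6) were above 0, so the red blood cell, endothelial and astrocyte sums were higher in cocaine at 7 days as well as at 2 h. At 24 h the red blood cell sum was at 0.14 (3 of 5), the endothelial sum at -0.01 (2 of 6) and the smooth muscle and pericyte sum at -0.02 (3 of 6), and at 2 h the last was at 0.04 (4 of 6). The microglia and oligodendrocyte sums were at 0.08 and -0.09 at 2 h and within 0.02 of 0 at 7 days. The summed FPKM of the 5 striatal markers found had log2 ratios of 0.18, 0.05 and 0.10, with 3 of 5 genes higher in cocaine at each time. Most of that sum was Ppp1r1b, and Drd2 and Rgs9 were lower in cocaine at each time. The 6 choroid plexus markers summed to 1.38 to 7.47 FPKM per group. The highest sum, in cocaine at 7 days, held 6.54 FPKM of Ttr, which had 0.284 FPKM in saline at that time, and Otx2 was at 0 in both groups at 2 h. The part of these markers in the values of the members was not tested.

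For the 3 entries with the largest ratio, the genes with the most like set of 3 log2 ratios were looked up among 7962 genes of at least 5 FPKM at each time, by Euclidean distance. Those nearest to Hspb1 were Sbk1 (log2 ratios of 0.81, 0.02 and 0.29 in order of time, distance 0.135), Gm24270 (distance 0.176) and Irf2bpl (0.220). Nearest to Hspa5 were Gtf2h4 (0.43, -0.03 and -0.16, distance 0.0982), Pou3f1 (0.104) and Gpr19 (0.112). Nearest to Hspa1a/Hspa1b were Nr2e1 (0.37, -0.10 and 0.02, distance 0.0797), Tsc22d4 (0.0900) and, between them, the small heat shock protein gene Hspb8 (0.40, -0.17 and 0.03, distance 0.0848). This likeness rests on 3 ratios per gene and is a description only.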

How the data were processed

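RNA of 12 libraries (6 groups, 60 mice) was sequenced as paired ends, of 75 nt per the labels and 100 nt per the paper. The submitters' processing notes name Trimmomatic 0.32, TopHat2 2.0.12, Cufflinks 2.2.1 and Cuffdiff with GRCm38, where the paper names mm9; the loci of all 10 members overlapped their RefSeq GRCm38.p6 genes. The authors kept uniquely mapped reads, pooled the libraries of a group and deposited 1 FPKM per locus and group, in 1 table per time point. The deposited columns of the authors' own comparison (fold change, statistic, p and q value) were not used. The first value column was taken as saline, following the supplementary tables, since the column labels (C_2H and 2H) do not settle it. Depth per library is unknown from these tables.

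Log2 ratios were computed without a pseudocount with pandas 2.3.3 and numpy 2.4.6 (Python 3.11.15), rank correlations with scipy 1.17.1 and figures with matplotlib 3.10.9. Counts, medians and percentiles used loci with a mean of at least 1 FPKM and both values above 0, and a threshold of 25% higher or 20% lower. Where a name stood on several loci the longest was taken. Lengths were those of the longest coding transcript of GENCODE M1. The steps were tested on simulated data. The members and lists were chosen with earlier results of these data known. Named were the 10 members, the highest and lowest gene of each related list per time point, and the 3 nearest genes of the 3 entries with the largest ratio; the other genes of those lists and single markers were named after their values were seen.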

Additional observations from a re-analysis of the deposited data

How the results depend on the processing

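No paired analysis was possible because each deposited value pools the libraries of a group, and fits that leave out a library were not run for the same reason. A median or ratio was taken as moved when it changed by 0.1 or more on the log2 scale, and a count when it changed by over 1.5 times. A pseudocount, centring on all loci, subtraction of the length trend, another choice of locus, no filter on low values and other folds were tried, and the joining of Hspa1a and Hspa1b at 7 days was added after the data were seen. Of 326 recomputed values 314 were not moved in this sense, and no member past the threshold changed sign. This total is no measure of robustness, because another choice of locus and no filter on low values left every member ratio as it was. A small median could also change sign without counting as moved. With the length trend subtracted, the heat shock factors at 7 days had a median of 0.02 in place of -0.07. With a fold of 1.5 the members higher at 2 h were 1 (Hspb1) in place of 3. With a fold of 1.1, 1 member was higher at 24 h (Dnajb1), 1 was higher at 7 days (Hspb1), 1 was lower at 2 h (Hsp90aa1) and 1 was lower at 7 days (Hspe1), in place of 0 each. With the length trend subtracted 1 member was higher at 7 days (Hspb1, log2 0.48), Hspe1 was at -0.07, and the median of the other small heat shock proteins at 7 days was 0.13 in place of 0.00; without the filter that list was at 0.25 at 2 h in place of 0.01. Scaling each group by its median ratio left 0 members below the saline range at 7 days in place of 1. The cause of these shifts was not tested beyond what each alternative does by construction.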

Other observations

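Cct6a, a subunit of the cytosolic chaperonin TRiC, changed side between time points: it had 43.7 FPKM under saline at 2 h and 59.0 under cocaine, at 60.9 and 45.3 at 24 h, and at 46.9 and 54.7 at 7 days (log2 0.43, -0.43 and 0.22). Every cocaine value of Cct6a lay inside its saline range of 43.7 to 60.9 FPKM, so the change of side did not exceed the spread of saline alone. Whether it depended on cocaine was not tested. Cct6a was the highest chaperonin gene at 2 h and 7 days and the lowest at 24 h, with log2 medians of that list at -0.05, -0.03 and -0.10. The Hsp40 gene Dnajc12 was lower in cocaine at both later times, with 9.37 and 7.56 FPKM at 24 h and 8.83 and 6.98 at 7 days (log2 -0.31 and -0.34).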
